A study of Saccharomyces cerevisiae with 24 samples.

Results

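The genes described here let budding yeast live on sucrose, maltose and isomaltose. They are SUC2 (YIL162W), MAL31 (YBR298C), MAL32 (YBR299W), MAL33 (YBR297W), IMA1 (YGR287C) and IMA5 (YJL216C), chosen by symbol, and they are 6 of the 5449 genes measured. Each was read by 1 probe set. The probe set of MAL32 is of a kind that reads several near-identical genes, and MAL12, the near-identical maltase gene of another MAL locus, has no probe set of its own in the table analysed here, so the MAL32 signal may come from either copy.

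The study grew a reference strain, labelled wild type, and 7 strains that lack 1 or more of SIP1, SIP2 and GAL83. These were sip1, sip2, gal83, sip1 sip2, sip1 gal83, sip2 gal83 and the triple strain sip1 sip2 gal83, each with 3 biological replicates and 1 array per replicate. All 24 cultures, the reference included, were aerobic chemostats in a 1 L bioreactor at 30 °C and pH 5.0, fed 10 g/L glucose at a dilution rate of 0.1 per h, and cells were taken at steady state. The parent strain and the number of clones behind each deletion strain are not given in the sources used here, and no culture was fed sucrose, maltose or isomaltose.

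The products of SIP1, SIP2 and GAL83 are alternative β-subunits of Snf1, the AMP-activated protein kinase of yeast, and they direct it to its places in the cell and its substrates. Snf1 takes its name from mutants that could not ferment sucrose. When glucose is plentiful the repressor Mig1, with Cyc8 and Tup1, holds SUC2 and the MAL genes down, and when glucose runs low Snf1 phosphorylates Mig1 and the repression ends. The MAL genes also need maltose and a MAL activator for full expression, while SUC2 needs no inducer.

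Values are log2 intensities per probe set. Levels of different probe sets are not compared, because each probe set has its own response. The deleted genes read between 2.02 and 2.09 in the strains that lack them, with an exception in each of 2 arrays. SIP2 read 6.0 in replicate 3 of the strain labelled sip1 sip2, and GAL83 read 9.72 in replicate 2 of the strain labelled sip1 gal83. A further array, sip2 gal83 replicate 1, stood apart from its strain mates, with a root mean square difference of 0.441 where the other arrays gave 0.136 to 0.269. For results on these strains, values without the 3 arrays are given where a call or a direction changed, and for the main results of each gene. The median over all genes was 11.07 in each reference array and between 10.90 and 10.98 in the single deletion arrays, so it moved with every comparison of a single deletion strain. Where a call against the reference ended with array medians subtracted, that value is given. A lower signal in a bulk culture cannot tell fewer expressing cells from less RNA per cell. Changes are given on the log2 scale with the standard error of 1 limma fit to all arrays, n = 3 per strain, and a gene is said to rise or fall only at a Benjamini-Hochberg adjusted p under 0.05 over the 5449 genes.

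All 6 genes differed among the strains, as did 71.4% of all genes, by limma's moderated F test over the 7 comparisons with the reference. The strain means of IMA5 spanned 5.15 log2 units. Those of SUC2 spanned 0.98, MAL31 0.88, IMA1 0.84, MAL32 0.70 and MAL33 0.50.

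**Figure D1:**
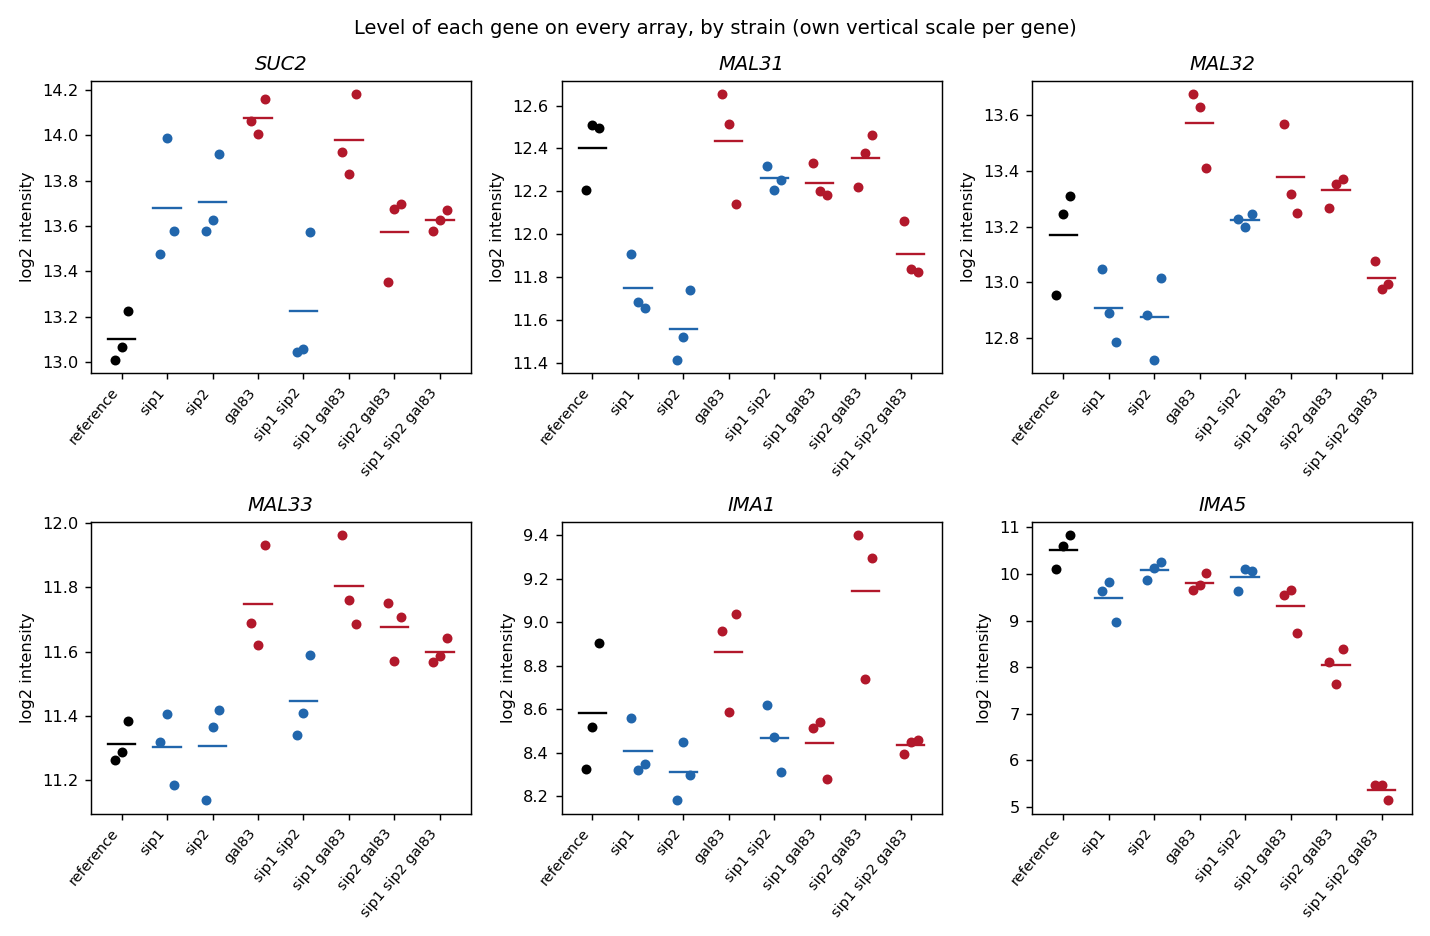
Log2 intensity of SUC2, MAL31, MAL32, MAL33, IMA1 and IMA5 on each of the 24 arrays, with strains along the horizontal axis and a vertical scale of its own for each gene. Points are arrays, bars are strain means, black is the reference, red marks strains without GAL83 and blue the other deletion strains. IMA5 falls from 10.51 in the reference to 5.36 in the triple strain, and SUC2 is lowest in the reference and in sip1 sip2.

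SUC2 encodes invertase, the enzyme that splits sucrose into glucose and fructose outside the cell. It rose in 6 of the 7 deletion strains, most in gal83, where it stood at 14.08 ± 0.078 (SD, n = 3) against 13.10 ± 0.11 in the reference. The reference arrays read 13.01, 13.07 and 13.22. The sip1 arrays read 13.48, 13.99 and 13.58, the sip2 arrays 13.58, 13.63 and 13.92, and the gal83 arrays 14.06, 14.01 and 14.16, so that each array of the 3 single deletion strains lay above each reference array. The changes were 0.58 ± 0.15 in sip1 (adjusted p = 0.00539), 0.61 ± 0.15 in sip2 (adjusted p = 0.00364) and 0.98 ± 0.15 in gal83, a factor of 1.97 (adjusted p = 9.16e-05).

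Among the strains lacking a pair of β-subunits, SUC2 rose in the 2 that lack GAL83. The sip1 sip2 arrays read 13.04, 13.06 and 13.57, of which the first and second lay within the reference range. The sip1 gal83 arrays read 13.93, 13.83 and 14.18 and the sip2 gal83 arrays 13.35, 13.68 and 13.70, all above the reference. SUC2 rose by 0.88 ± 0.15 in sip1 gal83 (adjusted p = 0.00148) and by 0.48 ± 0.15 in sip2 gal83 (adjusted p = 0.0204), while the difference in sip1 sip2 was 0.13 with a 95% interval from -0.19 to 0.44 (adjusted p = 0.912). The high sip1 sip2 array is the one with SIP2 signal, and without the 3 doubted arrays the difference in sip1 sip2 was -0.05 (adjusted p = 0.969), that in sip1 gal83 0.96 (adjusted p = 0.000235) and that in sip2 gal83 0.59 (adjusted p = 0.00483).

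The triple strain gave 13.58, 13.63 and 13.67 for SUC2, again above every reference array, a rise of 0.53 ± 0.15 (adjusted p = 0.0107). The order of strain means was gal83, sip1 gal83, sip2, sip1, triple, sip2 gal83, sip1 sip2 and reference. The arrays of every pair of neighbours in that order overlapped. The sip2 gal83 rise lost its call when reference replicate 1 or 2, or sip2 gal83 replicate 2 or 3, was left out (adjusted p from 0.0551 to 0.0659), and when those strains were fitted alone (adjusted p = 0.068).

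MAL31 encodes the maltose permease of the MAL3 locus, which carries maltose into the cell with a proton. It fell in sip1, sip2 and the triple strain and passed in no strain that keeps SIP1 or SIP2 but lacks GAL83. The reference arrays read 12.21, 12.51 and 12.50. The sip1 arrays read 11.91, 11.69 and 11.66 and the sip2 arrays 11.41, 11.52 and 11.74, all below the reference. The gal83 arrays read 12.65, 12.51 and 12.14, on both sides of the reference values. MAL31 fell by 0.65 ± 0.12 in sip1 (adjusted p = 0.000497) and by 0.85 ± 0.12 in sip2 (adjusted p = 4.65e-05), and the difference in gal83 was 0.03 with a 95% interval from -0.22 to 0.29 (adjusted p = 0.863).

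The double strains of MAL31 overlapped the reference. The sip1 sip2 arrays read 12.32, 12.21 and 12.25, a difference of -0.14 (adjusted p = 0.82). The sip1 gal83 arrays read 12.33, 12.20 and 12.18, a difference of -0.16 (adjusted p = 0.444), and the sip2 gal83 arrays 12.22, 12.38 and 12.46, a difference of -0.05 (adjusted p = 0.779). These passed in no case with or without the doubted arrays. The triple strain gave 12.06, 11.84 and 11.82, all below the reference, a fall of 0.50 ± 0.12 (adjusted p = 0.00393). In the order gal83, reference, sip2 gal83, sip1 sip2, sip1 gal83, triple, sip1 and sip2, the arrays of neighbours overlapped except between sip1 gal83 and the triple strain, whose means lay 0.33 apart.

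MAL32 encodes the maltase of the same locus, which splits maltose into glucose inside the cell, and shares a divergent promoter region with MAL31. It was highest in gal83 and lowest in sip2. The reference arrays read 12.95, 13.25 and 13.31, the widest range of the 8 strains for this gene. The gal83 arrays read 13.67, 13.63 and 13.41, all above it, and MAL32 rose there by 0.40 ± 0.10 (adjusted p = 0.00459). The sip1 arrays at 13.05, 12.89 and 12.79 and the sip2 arrays at 12.88, 12.72 and 13.02 overlapped the reference. The falls in sip1 and sip2 were 0.26 ± 0.10 (adjusted p = 0.0488) and 0.30 ± 0.10 (adjusted p = 0.0261), and with array medians subtracted both were -0.16 with adjusted p = 0.223 and 0.225. Over 34 alternative settings the sip1 fall passed in only 12 and the sip2 fall in 27.

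In the other strains MAL32 passed nowhere against the reference. The sip1 sip2 arrays read 13.23, 13.20 and 13.24, the sip1 gal83 arrays 13.57, 13.32 and 13.25, and the sip2 gal83 arrays 13.27, 13.35 and 13.37. The triple strain gave 13.08, 12.97 and 12.99, a difference of -0.16 (adjusted p = 0.244). Without the 3 doubted arrays the differences were 0.04 in sip1 sip2, 0.24 in sip1 gal83 and 0.19 in sip2 gal83 (adjusted p = 0.974, 0.199 and 0.259). The order of means was gal83, sip1 gal83, sip2 gal83, sip1 sip2, reference, triple, sip1 and sip2. The arrays of neighbours overlapped except those of sip2 gal83 and sip1 sip2, whose means were 0.11 apart.

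MAL33 encodes the MAL activator, a zinc-cluster transcription factor that switches on the permease and maltase genes when maltose is present. It rose in all 4 strains that lack GAL83 and passed in none that keep it. The reference arrays read 11.26, 11.29 and 11.38, while the gal83 arrays read 11.69, 11.62 and 11.93. The sip1 gal83 arrays read 11.96, 11.76 and 11.69, the sip2 gal83 arrays 11.75, 11.57 and 11.71, and the triple arrays 11.57, 11.59 and 11.64. Each of these 12 arrays lay above each reference array. The rises were 0.44 ± 0.095 in gal83 (adjusted p = 0.00157), 0.49 ± 0.095 in sip1 gal83 (adjusted p = 0.00317), 0.36 ± 0.095 in sip2 gal83 (adjusted p = 0.00693) and 0.29 ± 0.095 in the triple strain (adjusted p = 0.0236).

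MAL33 did not pass in the strains that keep GAL83. The sip1 arrays read 11.32, 11.41 and 11.18, a difference of -0.01 (adjusted p = 0.955), and the sip2 arrays 11.14, 11.36 and 11.42, a difference of -0.01 with a 95% interval from -0.20 to 0.19 (adjusted p = 0.973). The sip1 sip2 arrays read 11.34, 11.41 and 11.59, a difference of 0.14 (adjusted p = 0.754). The means ran from sip1 gal83 through gal83, sip2 gal83, triple, sip1 sip2, reference and sip2 to sip1, with the arrays of each pair of neighbours overlapping. Without the 3 doubted arrays the rise was 0.51 in sip1 gal83 (adjusted p = 0.00443) and 0.33 in sip2 gal83 (adjusted p = 0.0314), and the triple call ended when reference replicate 1 or 2 or triple replicate 2 or 3 was left out (adjusted p from 0.0504 to 0.0762).

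IMA1 encodes the major isomaltase, which splits the sugar bond of isomaltose and related α-glucosides. It rose in sip2 gal83 and passed in no other strain. The reference arrays read 8.32, 8.52 and 8.90 and the sip2 gal83 arrays 9.40, 8.74 and 9.29, so the groups overlapped in 1 array each. The difference was 0.56 ± 0.17 (adjusted p = 0.0141). It rests in part on sip2 gal83 replicate 1, the highest of the 24 arrays for IMA1: without that array it was 0.43 (adjusted p = 0.0751), and without the 3 doubted arrays 0.43 (adjusted p = 0.0849). Leaving out reference replicate 1 also ended the call (adjusted p = 0.0717).

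The gal83 arrays of IMA1 read 8.96, 8.59 and 9.04, a difference of 0.28 ± 0.17 (adjusted p = 0.19), which became 0.40 (adjusted p = 0.0471) with array medians subtracted. The sip1 arrays read 8.56, 8.32 and 8.35, the sip2 arrays 8.18, 8.45 and 8.30, and the sip1 sip2 arrays 8.62, 8.47 and 8.31. The sip1 gal83 arrays read 8.51, 8.54 and 8.28 and the triple arrays 8.39, 8.45 and 8.46. These 5 strains lay at means from 8.31 to 8.47 and none passed, and the arrays of all neighbours in the order of strain means overlapped.

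IMA5 encodes another isomaltase of the same enzyme family as the product of IMA1. It had the largest span of the 6 genes, and each deletion strain had a mean below the reference. The reference arrays read 10.10, 10.60 and 10.84. The gal83 arrays read 9.65, 9.76 and 10.02, all below the reference, and the sip2 arrays 9.86, 10.12 and 10.25, which overlapped it. The sip1 arrays read 9.64, 9.82 and 8.96, below it again. IMA5 fell by 1.04 ± 0.27 in sip1 (adjusted p = 0.00547) and by 0.70 ± 0.27 in gal83 (adjusted p = 0.0443), and the difference in sip2 was -0.43 (adjusted p = 0.213). The gal83 fall passed in 21 of 33 alternative settings. Among those that ended the call were array medians subtracted (-0.59, adjusted p = 0.0763) and the omission of reference replicate 3 (-0.54, adjusted p = 0.176).

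Loss of GAL83 together with SIP2, or with both others, went further. The sip1 sip2 arrays of IMA5 read 9.63, 10.11 and 10.06, a difference of -0.58 (adjusted p = 0.523) that was -0.64 without the 3 doubted arrays (adjusted p = 0.446), and the sip1 gal83 arrays 9.56, 9.66 and 8.73, a fall of 1.20 ± 0.27 (adjusted p = 0.00854). The sip2 gal83 arrays read 8.10, 7.65 and 8.38, below every array of the 6 strains above. The triple arrays read 5.47, 5.46 and 5.14, lower again than every sip2 gal83 array. IMA5 fell by 2.47 ± 0.27 in sip2 gal83, 5.53-fold (adjusted p = 1.32e-05), and by 5.15 ± 0.27 in the triple strain, 35.6-fold (adjusted p = 2.22e-10), with a 95% interval from -5.72 to -4.59.

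In the order of IMA5 means (reference, sip2, sip1 sip2, gal83, sip1, sip1 gal83, sip2 gal83, triple) arrays of neighbours overlapped down to sip1 gal83. They did not overlap from sip1 gal83 to sip2 gal83, 1.27 apart, or from there to the triple strain, 2.69 apart. Without the 3 doubted arrays IMA5 fell by 1.37 in sip1 gal83 (adjusted p = 0.00827) and by 2.5 in sip2 gal83 (adjusted p = 0.000103), and without sip1 gal83 replicate 3 the fall of that strain was 0.90 (adjusted p = 0.0611).

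**Figure D2:**
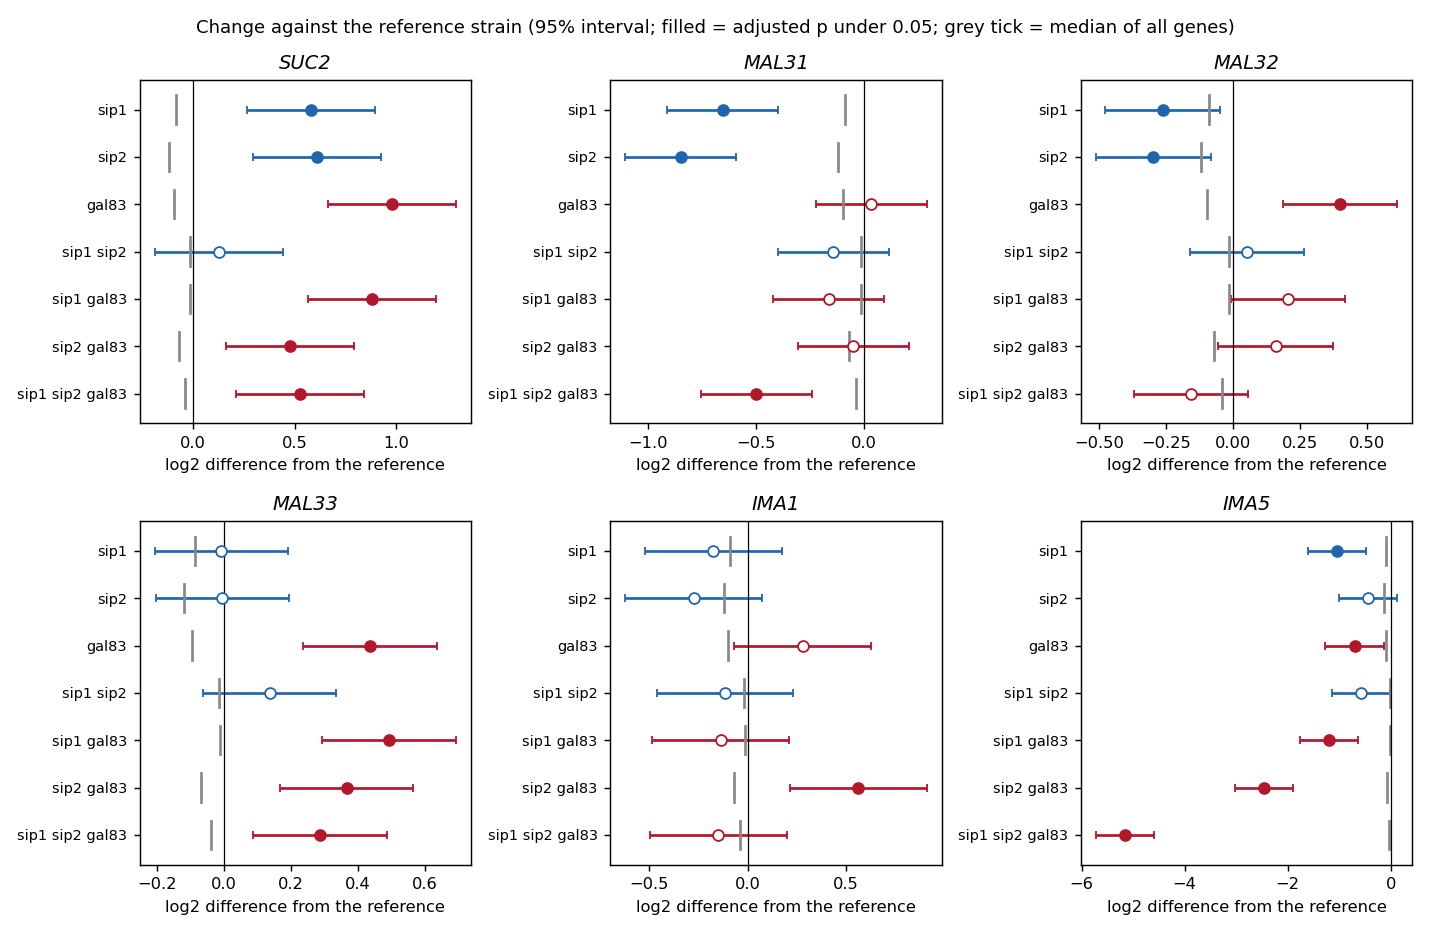
Log2 difference of each deletion strain from the reference for the 6 genes, with 95% intervals from the limma fit, along the horizontal axis. Filled points passed at an adjusted p under 0.05, open points did not, and the grey tick is the median difference of all 5449 genes. SUC2 points lie right of 0 in 6 strains that passed, and IMA5 reaches -5.15 in the triple strain.

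Counted by strain, 1 of the 6 genes rose and 3 fell in sip1, where 10.3% of all genes rose and 29.1% fell, 39.4% together. In sip2, 1 rose and 2 fell, where 8.55% of all genes rose and 32.1% fell, 40.7% together. In gal83, 3 rose (SUC2, MAL32 and MAL33) and 1 fell (IMA5), where 10.6% of all genes rose and 30.6% fell, 41.2% together. The median change of the 6 genes was -0.22 in sip1, -0.28 in sip2 and 0.34 in gal83, beside medians of all genes of -0.09, -0.12 and -0.10. With array medians subtracted, 1272 genes rose and 1024 fell in sip1, 1247 and 1004 in sip2, and 1263 and 997 in gal83, in place of 562 and 1586, 466 and 1751, and 575 and 1668. Set against the all-gene median in sip2, SUC2 stood 0.73 higher, MAL31 -0.73 and MAL32 -0.18.

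None of the 6 genes passed in sip1 sip2, where 0.257% of all genes did, 0.11% upward and 0.147% downward. At an unadjusted p under 0.05 it was 1 of the 6, IMA5, and the share of all genes at that threshold is not given here. In sip1 gal83, 2 of the 6 rose and 1 fell, where 3.6% of all genes rose and 7.3% fell, 10.9% together. Without the 3 doubted arrays 1 rose and 2 fell in sip1, and 2 rose and 1 fell in sip2 gal83, with the all-gene shares in that setting not given here. With all arrays, in sip2 gal83, 3 rose and 1 fell, beside 10.8% and 26.4% of all genes (37.3% together), and in the triple strain 2 rose and 2 fell, beside 14.9% and 23.5% (38.4% together). With array medians subtracted the calls over all genes were 1185 up and 980 down in sip2 gal83 and 1191 up and 923 down in the triple strain, in place of 590 and 1441, and 811 and 1282. All 7 comparisons share the 3 reference arrays.

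Set against the mean of sip1 and sip2, the gal83 strain was higher in MAL31, MAL32 and MAL33, 3 of the 6 genes, where 2.24% of all genes were higher and 3.74% were called either way. MAL31 was higher by 0.78 ± 0.11 (adjusted p = 0.000144), MAL32 by 0.68 ± 0.088 (adjusted p = 9.05e-05) and MAL33 by 0.44 ± 0.082 (adjusted p = 0.00318). These are the permease, maltase and activator genes that lie together at the MAL3 locus, though the MAL32 signal may come from MAL12 at another locus. SUC2 differed by 0.38 ± 0.13 (adjusted p = 0.133) and IMA1 by 0.50 ± 0.14 (adjusted p = 0.0621), and without the 3 doubted arrays, which lie outside this comparison but enter the fit's spread, both passed (adjusted p = 0.0376 and 0.0478). IMA5 differed by 0.03 (adjusted p = 1).

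The average effect of a deletion was the mean of the 4 strains that lack the gene less the mean of the 4 that keep it. For GAL83, 5 of the 6 genes were higher and IMA5 was lower, where 19.6% of all genes were higher and 19.7% lower, 39.3% together. The differences were 0.39 ± 0.075 for SUC2 (adjusted p = 0.000584), 0.24 ± 0.061 for MAL31 (adjusted p = 0.00459) and 0.28 ± 0.051 for MAL32 (adjusted p = 0.00031). They were 0.36 ± 0.047 for MAL33 (adjusted p = 1.12e-05), 0.28 ± 0.083 for IMA1 (adjusted p = 0.0122) and -1.87 ± 0.13 for IMA5 (adjusted p = 1.24e-08). IMA1 lost its call without the 3 doubted arrays (0.22, adjusted p = 0.0598). These averages mix strains in which a gene changed by different amounts, and a higher average need not be a rise over the reference. MAL31 rose in no strain lacking GAL83, with changes of 0.03 (gal83), -0.16 (sip1 gal83), -0.05 (sip2 gal83) and -0.50 (triple). Strains that keep GAL83 include sip1 and sip2, where MAL31 fell by 0.65 and 0.85. Its mean was 12.23 over the strains lacking GAL83 and 11.99 over those keeping it, both below the reference mean of 12.40.

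For SIP1, IMA1 and IMA5 were lower on average, 2 of the 6, where 7.43% of all genes were lower and 25% were called either way. IMA1 was lower, with a difference of -0.29 ± 0.083 (adjusted p = 0.0174) and IMA5 of -1.09 ± 0.13 (adjusted p = 2.96e-05), and without the 3 doubted arrays IMA1 gave -0.25 (adjusted p = 0.0515). For SIP2, MAL31 and IMA5 were lower, again 2 of the 6, where 7.43% of all genes were lower and 13.4% were called either way. IMA5 was lower, with a difference of -1.42 ± 0.13 (adjusted p = 2e-06). MAL31 was lower, with a difference of -0.19 ± 0.061 (adjusted p = 0.0495), a call that most alternatives ended (-0.17 and adjusted p = 0.0786 with array medians subtracted). SUC2 showed 0.01 for SIP1 (adjusted p = 0.934) and -0.18 for SIP2 (adjusted p = 0.126).

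**Figure D3:**
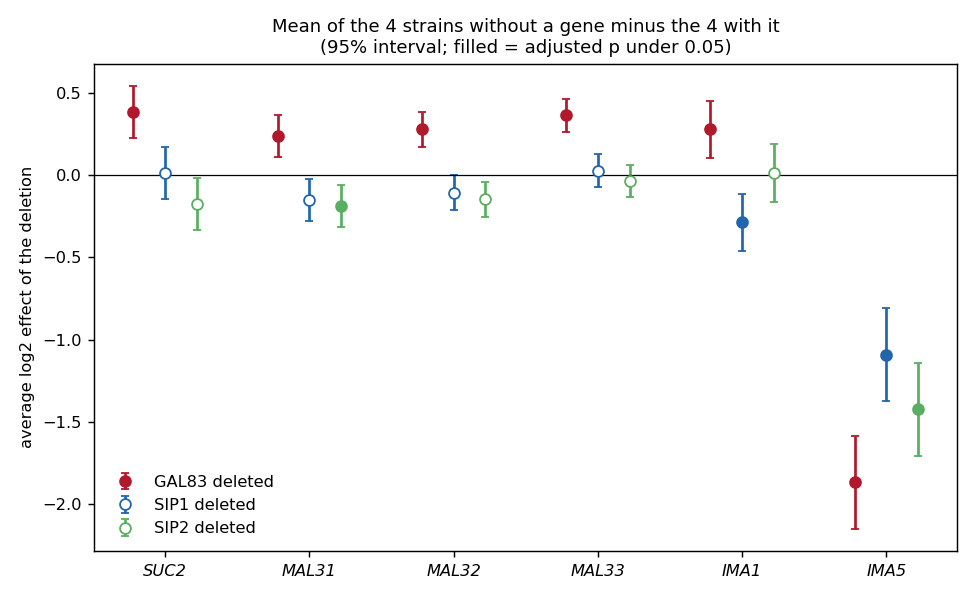
Average log2 effect of deleting GAL83, SIP1 or SIP2 on each of the 6 genes, as the mean of 4 strains without the gene minus the mean of 4 strains with it, with 95% intervals. Filled points passed at an adjusted p under 0.05. For GAL83, 5 genes lie between 0.24 and 0.39 and IMA5 lies at -1.87, the lowest point drawn.

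Whether deletions add up was tested by an interaction term for each pair of β-subunit genes, the double-strain change less the sum of the single-strain changes. For SIP1 and SIP2, 3 of the 6 genes passed, where 52.4% of all genes did. The single-strain rises of SUC2 add to 1.19, and the double strain gave 0.13, an interaction of -1.06 ± 0.21 (adjusted p = 0.000445). The single-strain falls of MAL31 add to -1.50 where the double strain gave -0.14, an interaction of 1.36 ± 0.17 (adjusted p = 5.54e-06). MAL32 summed to -0.56 and measured 0.05, an interaction of 0.61 ± 0.14 (adjusted p = 0.0017). In these genes the sip1 sip2 mean lay nearer the reference than the mean of either single strain. IMA5 had 0.89 ± 0.38 (adjusted p = 0.0571), and MAL33 and IMA1 did not pass.

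For SIP1 and GAL83, 2 of the 6 passed, where 51.3% of all genes did. SUC2 summed to 1.56 and measured 0.88 in the double strain, an interaction of -0.68 ± 0.21 (adjusted p = 0.0129). MAL31 summed to -0.62 and measured -0.16, an interaction of 0.46 ± 0.17 (adjusted p = 0.0341), which was 0.26 with array medians subtracted (adjusted p = 0.215). MAL33, the activator gene, measured 0.49 beside a sum of 0.43, an interaction of 0.07 with a 95% interval from -0.22 to 0.35 (adjusted p = 0.729).

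For SIP2 and GAL83, 3 of the 6 passed, where 47.8% of all genes did. SUC2 summed to 1.59 and measured 0.48, an interaction of -1.11 ± 0.21 (adjusted p = 0.000399), and MAL31 summed to -0.82 and measured -0.05, an interaction of 0.76 ± 0.17 (adjusted p = 0.00153). IMA5 alone among the passing values went beyond its sum: the single strains add to -1.13 and the double strain gave -2.47, an interaction of -1.33 ± 0.38 (adjusted p = 0.00782). Without the 3 doubted arrays that interaction was -1.36 (adjusted p = 0.0129). The median interaction of all genes was 0.17, 0.15 and 0.13 for the 3 pairs. Relative to these medians SUC2 stood at -1.24, -0.82 and -1.24, MAL31 at 1.18, 0.31 and 0.64, and IMA5 for SIP2 and GAL83 at -1.46.

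**Figure D4:**
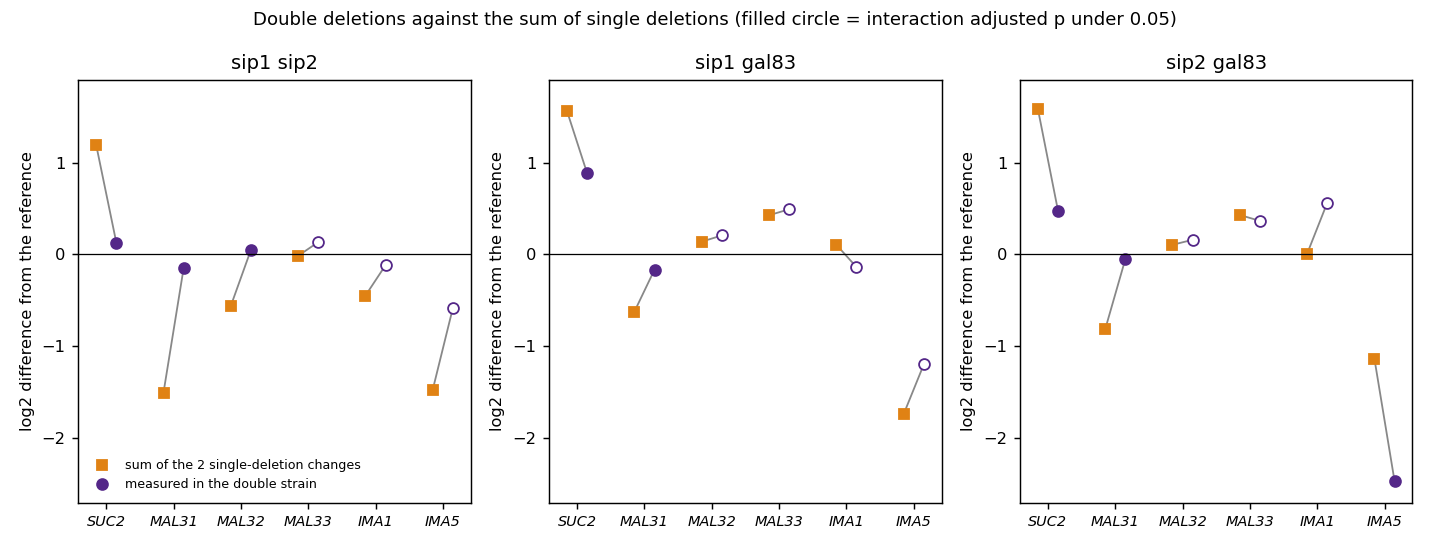
Change measured in each double deletion strain (circles) and the sum of the changes in its 2 single deletion strains (squares), as log2 differences from the reference, for the 6 genes. Filled circles have an interaction with an adjusted p under 0.05. SUC2 and MAL31 circles lie nearer 0 than their squares in each panel, while the IMA5 circle for sip2 gal83 lies below its square, at -2.47 against -1.13.

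The triple strain was compared with each double strain, which gives the effect of removing the last β-subunit. IMA5 was lower in all 3 comparisons, with differences of -4.58 ± 0.27 against sip1 sip2 (adjusted p = 1.71e-09), -3.96 ± 0.27 against sip1 gal83 (adjusted p = 1.16e-08) and -2.69 ± 0.27 against sip2 gal83 (adjusted p = 2.04e-06). Every triple array lay below every array of each double strain. Against sip1 sip2, 2 of the 6 genes were lower, where 18% of all genes were lower and 32.1% were called either way. The other was MAL31, at -0.35 ± 0.12 (adjusted p = 0.0338), a call that ended without the 3 doubted arrays (adjusted p = 0.0625) and with array medians subtracted (-0.31, adjusted p = 0.0593), while SUC2 gave 0.40 ± 0.15 (adjusted p = 0.0502) and 0.57 without them (adjusted p = 0.00319).

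Against sip1 gal83, 2 of the 6 were lower, where 7.14% of all genes were lower and 13.2% were called either way. MAL32 was lower, with a difference of -0.36 ± 0.10 (adjusted p = 0.0249; -0.39 and 0.0462 without the doubted arrays), and SUC2 gave -0.36 ± 0.15 (adjusted p = 0.128), which passed at -0.43 without the 3 doubted arrays (adjusted p = 0.0419). Against sip2 gal83, 4 of the 6 were lower, where 4.94% of all genes were lower and 14.5% were called either way. IMA1 was lower, with a difference of -0.71 ± 0.17 (adjusted p = 0.00731), MAL31 of -0.45 ± 0.12 (adjusted p = 0.0187) and MAL32 of -0.32 ± 0.10 (adjusted p = 0.0452). The MAL32 call ended without the 3 doubted arrays (adjusted p = 0.071), and it passed in 17 of 34 alternative settings. SUC2 differed by 0.05 (adjusted p = 0.879) and MAL33 by -0.08 (adjusted p = 0.637).

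The signals assigned to the 3 genes of the MAL3 locus moved together to different degrees over the 24 arrays, which share strains and processing. Pearson's r was 0.870 between MAL31 and MAL32, the permease and maltase, and 0.671 between MAL32 and the activator gene MAL33, but 0.434 between MAL31 and MAL33. SUC2 had r = 0.584 with MAL33 and -0.0958 with MAL31. IMA5 had r between -0.267 and 0.164 with the 5 other genes. IMA1, which lies outside the MAL3 locus, had r = 0.541 with MAL31 and 0.545 with MAL32. The MAL32 signal may come from MAL12, which lies 3 genes from IMA1 in the reference annotation.

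Members and genes with shared probe sets were left out of a ranking by r over the same 24 arrays. The genes whose profiles were then most like each member's were these. For SUC2 they were HXK1 (r = 0.831), which encodes hexokinase isoenzyme 1, UCC1 (0.780), an F-box protein gene, and APM1 (0.768), a clathrin adaptor gene. For MAL31 they were FRE2 (0.811), a ferric reductase gene, ROD1 (0.781), an arrestin gene, and CAT8 (0.768), which encodes an activator of gluconeogenic genes. For MAL32 they were MTH1 (0.833), a co-regulator of hexose transporter genes, CAT8 (0.698) and MRK1 (0.693). For MAL33 they were DLD3 (0.780), BDH1 (0.769), a butanediol dehydrogenase gene, and ERG12 (0.753), the mevalonate kinase gene. For IMA1 they were HXT10 (0.826), a hexose transporter gene, YFR006W (0.752) and RPN9 (0.734), a proteasome subunit gene.

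IMA5 had the closest matches, GCY1 (0.941), YEF1 (0.940) and FAT3 (0.937). FAT3, a fatty acid uptake gene, fell by 1.63 ± 0.23 in sip2 gal83 (adjusted p = 0.000121) and by 3.11 ± 0.23 in the triple strain (adjusted p = 2.99e-08). YEF1, an NAD kinase gene, fell by 1.52 ± 0.13 in the triple strain (adjusted p = 1.46e-07), and GCY1, a glycerol dehydrogenase gene, by 0.88 ± 0.065 (adjusted p = 2.68e-08). The fall of IMA5 there was the largest of the 4.

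Other genes of the same sugars were listed by function, and 6 of 12 had a probe set. MAL11, the general α-glucoside permease gene of the MAL1 locus, read 12.16, 12.53 and 12.72 in the reference, 13.52, 13.43 and 12.90 in gal83 and 11.34, 11.43 and 11.35 in the triple strain. The gal83 arrays lay above the reference and the triple arrays below it. MAL11 rose by 0.81 ± 0.15 in gal83 (adjusted p = 0.000485) and fell by 1.10 ± 0.15 in the triple strain (adjusted p = 2.46e-05). The permease genes of the MAL3 and MAL1 loci gave changes of 0.03 and 0.81 in gal83, and the difference between the genes was not tested.

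MAL13, the activator gene of the MAL1 locus, fell by 1.07 ± 0.24 in sip1 (adjusted p = 0.00206), 0.69 ± 0.24 in sip2 (adjusted p = 0.027), 0.68 ± 0.24 in sip2 gal83 (adjusted p = 0.0332, and 0.0999 at -0.55 without the 3 doubted arrays) and 0.67 ± 0.24 in the triple strain (adjusted p = 0.0345). MAL33, the activator gene of the MAL3 locus, rose in the last pair of these strains. MPH2, an α-glucoside permease gene tested through a shared probe set, fell in 6 strains, by between 1.15 and 2.22 (1.89 in place of 2.22 in sip2 gal83 without the doubted arrays), and its difference in sip1 sip2 was -0.49 (adjusted p = 0.646). Another probe set of MPH2, not of the shared kind, read lower and was not the one tested. Its means ran from 5.39 in the reference and 5.13 in sip1 sip2 down to 3.66 in sip2 gal83. YPR196W, a putative maltose-responsive activator gene, fell by 0.73 in sip2 and 0.78 in sip2 gal83. The sip2 gal83 value was -0.40 and did not pass without the 3 doubted arrays (adjusted p = 0.0893). ZNF1, a regulator of respiratory genes with values near the lower end of the scale, fell by 0.65 in sip2. IMA3, an isomaltase gene with a shared probe set, passed in no strain. Over the 6 genes, 0 rose and 4 fell in sip2, 0 rose and 2 fell in sip1, and 1 rose and 1 fell in gal83. Over all genes, 8.55% rose and 32.1% fell in sip2, 10.3% and 29.1% in sip1, and 10.6% and 30.6% in gal83. Further, 0 rose and 1 fell in sip1 gal83, 0 rose and 3 fell in sip2 gal83, and 0 rose and 3 fell in the triple strain. Over all genes, 3.6% rose and 7.3% fell in sip1 gal83, 10.8% and 26.4% in sip2 gal83, and 14.9% and 23.5% in the triple strain. None of the 6 passed in sip1 sip2, where 0.257% of all genes did. There 0 of 6 had an unadjusted p under 0.05, a threshold at which the all-gene share is not given here. With the doubted arrays left out, 1 fell in sip2 gal83 and 3 fell in sip1, with the all-gene shares in that setting not given here.

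**Figure D5:**
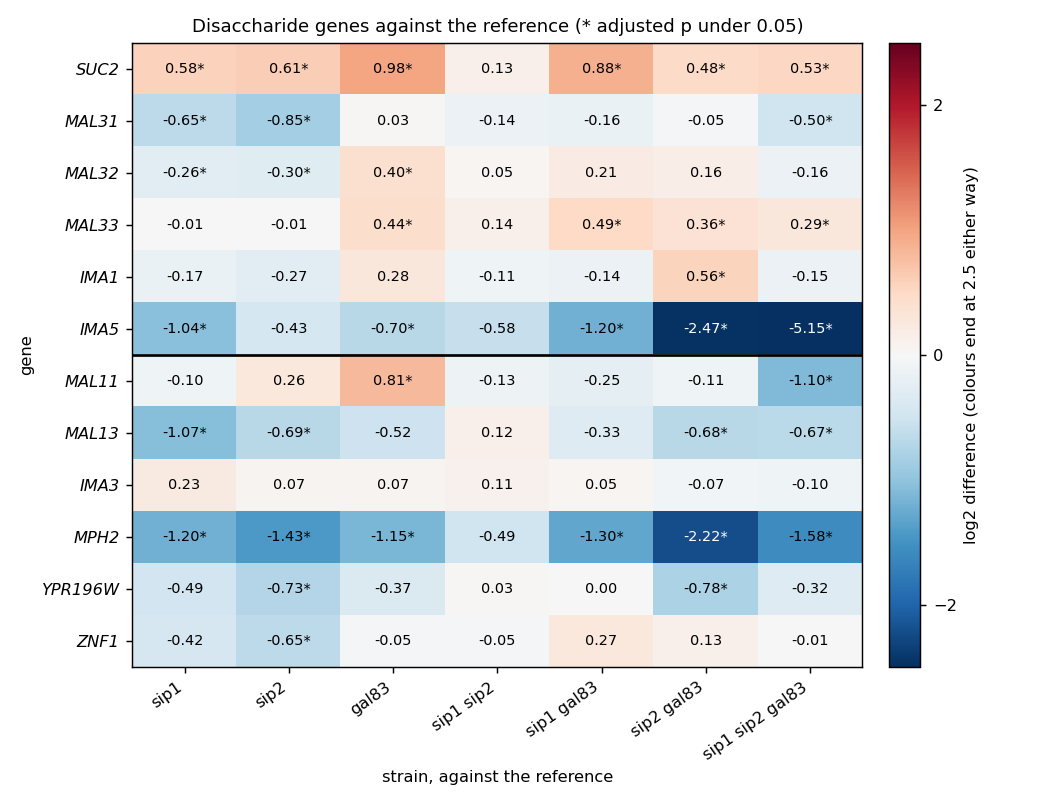
Log2 difference from the reference, printed in each cell, for the 6 genes described here and for the 6 other measured genes of the same sugars (rows) in the 7 deletion strains (columns). Red is higher, blue is lower, colours end at 2.5 either way, and an asterisk marks an adjusted p under 0.05. The column of sip1 sip2 holds no asterisk, and the darkest cell is IMA5 in the triple strain, at -5.15.

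Of 22 genes of Snf1 and glucose repression, 1 rose and 6 fell in sip1, 1 rose and 11 fell in sip2, 2 rose and 5 fell in gal83, and 0 rose and 2 fell in sip1 sip2, with the deleted genes among those that fell. Over all genes, 10.3% rose and 29.1% fell in sip1, 8.55% and 32.1% in sip2, and 10.6% and 30.6% in gal83. In sip1 sip2 these shares were 0.11% and 0.147%. In sip1 gal83 2 rose and 4 fell, in sip2 gal83 4 and 9, and in the triple strain 3 and 6. Over all genes, 3.6% rose and 7.3% fell in sip1 gal83, 10.8% and 26.4% in sip2 gal83, and 14.9% and 23.5% in the triple strain. With the 3 doubted arrays left out, 13 fell in sip1, 15 in sip2, 8 in gal83 and 9 in the triple strain, and 4 rose and 5 fell in sip1 gal83. The doubted arrays enter the sip1, sip2, gal83 and triple comparisons only through the fit's spread, which bears on calls over all genes. The all-gene shares in that setting are not given here. MIG1, the repressor of SUC2 and MAL genes, fell by 0.36 ± 0.11 in sip2 gal83 (adjusted p = 0.014) and passed in no other strain. Without the doubted arrays that difference was -0.20 and did not pass (adjusted p = 0.0754). CYC8, the corepressor gene, fell in sip1, sip2, gal83, sip2 gal83 and the triple strain by between 0.57 and 0.79, and its sip2 gal83 fall was 0.33 without the doubted arrays (adjusted p = 0.00698), where sip1 gal83 also passed (-0.33, adjusted p = 0.0111). NRG1, a repressor gene, rose by 0.63, 0.68 and 0.72 in sip1, sip2 and gal83 and fell by 0.28 in sip1 gal83 (adjusted p = 0.0459), where the call ended without the doubted arrays (-0.23, adjusted p = 0.102). MIG3, a Mig1 relative, read between 4.51 and 4.57 in the reference arrays and between 2.37 and 2.52 in the 6 strains where it fell, near the lower end of the scale, while its sip1 sip2 arrays lay between 3.57 and 4.82.

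Of 14 measured genes of hexose sensing, uptake and phosphorylation, 0 rose and 2 fell in sip1 and also in sip2, 4 rose and 4 fell in gal83 and none passed in sip1 sip2, where 0 had an unadjusted p under 0.05. Over all genes, 10.3% rose and 29.1% fell in sip1, 8.55% and 32.1% in sip2, and 10.6% and 30.6% in gal83, and 0.257% passed in sip1 sip2. In sip1 gal83 3 rose and 0 fell, in sip2 gal83 1 and 4, and in the triple strain 6 and 3. Over all genes, 3.6% rose and 7.3% fell in sip1 gal83, 10.8% and 26.4% in sip2 gal83, and 14.9% and 23.5% in the triple strain. When the doubted arrays were left out, 5 rose and 1 fell in sip1 gal83 and 3 rose and 4 fell in sip2 gal83. HXK1, first for SUC2 in the ranking by r, rose by 0.27 ± 0.053 in gal83 (adjusted p = 0.000637) and by 0.18 ± 0.053 in the triple strain (adjusted p = 0.0125). Without the doubted arrays it also passed in sip1 gal83 (0.19, adjusted p = 0.0101) and sip2 gal83 (0.14, adjusted p = 0.0336). MTH1, first for MAL32 in that ranking of genes outside the members, rose by 0.47 ± 0.071 in gal83 (adjusted p = 8.83e-05) and by 0.36 ± 0.071 in sip1 gal83 (adjusted p = 0.00444). Of 13 genes of chromatin remodelling and SAGA, on which SUC2 transcription is known to depend, 2 rose and 5 fell in sip1, 1 and 5 in sip2, 2 and 5 in gal83, 0 and 5 in sip2 gal83 and 1 and 3 in the triple strain, with none in sip1 sip2 or sip1 gal83, where 1 each had an unadjusted p under 0.05. The all-gene shares above apply to this list too, and those at an unadjusted p under 0.05 are not given here. Without the doubted arrays 2 fell in sip1 gal83 and 3 in sip2 gal83. All-gene shares without the doubted arrays are not given here, for this list or the hexose list.

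IMA5 was also set beside its neighbours in the reference annotation's gene order, a description chosen after values were seen. REE1, next to IMA5 and named for a role in enolase regulation, fell by 1.02 ± 0.14 in the triple strain (adjusted p = 2.67e-05) and by between 0.44 and 0.55 in gal83, sip1 gal83 and sip2 gal83. YJL218W, a putative acetyltransferase gene, fell by 1.95 ± 0.36 in sip1 (adjusted p = 0.000463), 1.25 ± 0.36 in gal83 (adjusted p = 0.0103), 2.14 ± 0.36 in sip1 gal83 (adjusted p = 0.0013), 1.7 ± 0.36 in sip2 gal83 (adjusted p = 0.00204) and 1.40 ± 0.36 in the triple strain (adjusted p = 0.0055). YJL213W went the other way, rising by 1.12 ± 0.25 in sip1 gal83 (adjusted p = 0.00832), 1.93 ± 0.25 in sip2 gal83 (adjusted p = 6.12e-05) and 1.52 ± 0.25 in the triple strain (adjusted p = 0.000144). HXT8, on the other side of IMA5, read near the lower end of the scale in every strain. None of the changes of REE1, YJL218W and YJL213W reached the -5.15 of IMA5. Among the other measured neighbours, OPT1 had a mean of 4.26 in the reference. Its means were 2.91 in sip1, 2.69 in sip2, 2.64 in gal83 and 6.16 in the triple strain. HXT9 had means of 5.60 in the reference and 5.66 in the triple strain, and PEX2 of 12.36 and 12.03.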

How the data were processed

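The deposited table holds log2 intensities of 5716 probe sets on 24 arrays, which per the submitters' processing notes come from RMA (affy), with versions not given in the sources used here. The platform annotation named 1 gene for 5498 probe sets and none for 218, and the highest of several probe sets per gene was kept, which left 5449 genes. Symbols follow the R64 gene table, used for names only; no coordinates or sequences are printed. Groups come from the sample titles.

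A single linear model, with a mean for each strain and 16 residual degrees of freedom, was computed over the 24 arrays in limma 3.58.1 (R version 4.3.3, moderated by eBayes); the script was first tested on simulated data. P-values are two-sided and Benjamini-Hochberg adjusted over 5449 genes within each of 17 comparisons, and a call is an adjusted p under 0.05 with no minimum fold. No filter on low values was applied. The members, the gene lists and the tests were chosen with earlier results of these data known. Named genes are the members, the deleted genes, called list members and, for each member, the 3 genes of highest r. Members and genes with shared probe sets were left out of that ranking. The neighbours of IMA5, and the list genes named as passing nowhere, were chosen after their values were seen. Alternatives were median subtraction, quantile normalization, 2 treatments of low values, a fit to every probe set, a trended and robust eBayes, array weights, a replicate block, fits to the compared groups alone, and omission of the 3 doubted arrays together or each array in turn. The number of arrays limits the precision. The lists and other named genes were also recomputed without the doubted arrays, an addition made after seeing the data.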

Additional observations from a re-analysis of the deposited data

Results flagged for a closer look

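Each of these interactions passed limma's test of the difference itself (adjusted p under 0.05). The double-strain change thus differed from the sum of the single-strain changes. The cause was not tested. For SIP1 and SIP2 the interaction was -1.06 for SUC2, 1.36 for MAL31 and 0.61 for MAL32. For SIP1 and GAL83 it was -0.68 for SUC2 and 0.46 for MAL31. For SIP2 and GAL83 it was -1.11 for SUC2, 0.76 for MAL31 and -1.33 for IMA5. About 1 in 2 of all genes passed each of these tests (52.4%, 51.3% and 47.8%), so the share of the 6 genes is near or below the background.

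SUC2 and MAL31 passed all 3 interactions, with opposite signs. The sip1 sip2 and sip1 gal83 strains each hold an array whose deleted gene gave signal, and sip2 gal83 holds the array farthest from its mates. All 8 interactions kept their direction and their call without the 3 doubted arrays, and the IMA5 value was then -1.36 (adjusted p = 0.0129).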

How the results depend on the processing

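Of 3397 recomputed values of single genes, 3206 kept their side of the threshold with no called value changing sign, 129 lost a call and 61 gained one. The 3206 include 76 changes of sign in values called under neither setting, such as SUC2 in sip1 sip2, and 1 value called with all arrays turned its sign, the IMA5 interaction of SIP2 and GAL83 with low values raised to 9.75, which gave 0.34 (adjusted p = 0.224); that bound lies above IMA5 in sip2 gal83, and 19 further values of IMA1 and IMA5 could not be had there. The number of genes called among the 6 moved by over 1.5 times in these cases. With the compared groups alone it was 2 in place of 4 for gal83 and for sip2 gal83 against the reference and for the triple strain against sip2 gal83, and 1 in place of 2 for the SIP1 GAL83 interaction, which median subtraction also left at 1. Leaving out the lowest 25% of gene means, which drops IMA1 and IMA5, gave 2 for sip2 gal83, 0 for average SIP1, 1 for average SIP2, and 1 and 2 for the triple strain against sip1 gal83 and sip2 gal83. Raising low values gave 1 for average SIP1, 0 for average SIP2, and 1 for the triple strain against each double strain. Array weights gave 5 in place of 3 for gal83 against the mean of sip1 and sip2, 4 in place of 2 for average SIP1 and 5 in place of 2 for the triple strain against sip1 gal83, and without the 3 doubted arrays the first was 5 and average SIP1 was 1. Average SIP2 was 1 in place of 2 under median subtraction, quantile normalization and the replicate block. With each array left out in turn, counts ranged from 2 to 4 for sip2 gal83 and the triple strain against sip2 gal83, 2 to 4 for average SIP1, 1 to 3 for average SIP2 and for the triple strain against sip1 sip2 and sip1 gal83, and 1 to 2 for the SIP1 GAL83 interaction. Over all genes, array weights called 160 genes in place of 14 for sip1 sip2, 1594 in place of 594 for sip1 gal83, 3392 in place of 2093 for the triple strain, and 490 in place of 204 for gal83 against the mean of sip1 and sip2; without the doubted arrays these were 41, 898 and, for the last, 330. The compared groups alone called 5 for sip1 sip2, 528 in place of 2031 for sip2 gal83 and 120 for gal83 against that mean. Deviations of same-numbered arrays from their strain means had a mean r of 0.022 and different-numbered ones -0.011. The r was over 0.1 in 30 of 84 same-numbered pairs and in 36 of 168 different-numbered pairs. Centring within strains ties these means together, so the check cannot tell whether some arrays were paired by number. With the replicate block 97 of 102 values kept their call. The cause of these shifts was not tested.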
